A study of Mus musculus with 2 samples.

Results

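Col10a1, Mmp13, Vegfa and Spp1 are genes that mark or carry out the last stages of cartilage growth, and the sites called for the transcription factors Sox6 and Sox9 around them are described here. The members are all called peaks, in 2 deposited lists, whose centre lies in 1 of 4 windows of the mouse genome build mm9, 310 kb in all. They number 41 of the 102972 peaks of the series: 32 of 79107 in the Sox6 list and 9 of 23865 in the Sox9 list. The windows are chromosome 10 from 34080000 to 34160000 for Col10a1, chromosome 9 from 7230000 to 7300000 for Mmp13, chromosome 17 from 46120000 to 46230000 for Vegfa and chromosome 5 from 104840000 to 104890000 for Spp1. They were set by position around the genes and not by peak values.

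The Sox6 list comes from 1 chromatin immunoprecipitation (ChIP-seq) sample of primary rib chondrocytes from untreated wild-type ICR mice at postnatal day 1, with 1 sample of input DNA from like cells. The submitters' dissection kept proliferating and prehypertrophic cartilage of the rib and left mature hypertrophic cartilage out. The Sox9 list was derived by the authors from 2 earlier Sox9 samples of mouse rib chondrocytes. For that list the sources used here give neither strain nor age. Each factor has 1 list without replicates, scores or read counts, so depth is unknown, no difference between the factors was tested, and intervals cover counting error only. The lists hold no expression values, and neither the identity of the cells nor the activity of the 4 genes can be read from them.

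As background, chondrocytes of a growing bone first divide, then stop dividing and enlarge, a step called hypertrophy, after which the cartilage is calcified, invaded by vessels and replaced by bone. SOX9 and its partners SOX5 and SOX6 bind DNA through an HMG box and keep the earlier chondrocyte programme active. Col10a1 encodes type X collagen, the defining matrix protein of hypertrophic cartilage. Spp1 encodes osteopontin, an acidic phosphoprotein made by late hypertrophic chondrocytes and osteoblasts. Mmp13 encodes a collagenase that cuts fibrillar collagen at the end of this process, and Vegfa encodes the growth factor that draws blood vessels into the cartilage.

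The sequence upstream of each gene is shown to let the 4 genes be compared for the short motif that HMG-box factors recognise. The 250 bases before the annotated start are printed 5′ to 3′ on the strand of the gene, from RefSeq on build GRCm38.p6, and all 4 genes were found there by symbol. These coordinates are of a different build from the peaks, so no peak can be placed on or off these sequences. The 4 motifs searched, on both strands, were ACAAAG with its variant ACAATG, together with TCAAAG and its variant TCAATG, and capitals mark each match.
Col10a1 upstream (chr10:34389731-34389980, plus strand): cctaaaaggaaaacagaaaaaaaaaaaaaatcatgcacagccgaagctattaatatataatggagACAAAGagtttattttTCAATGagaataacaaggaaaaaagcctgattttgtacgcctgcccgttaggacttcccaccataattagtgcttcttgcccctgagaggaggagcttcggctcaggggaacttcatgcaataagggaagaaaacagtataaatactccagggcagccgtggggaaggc
Mmp13 upstream (chr9:7272264-7272513, plus strand): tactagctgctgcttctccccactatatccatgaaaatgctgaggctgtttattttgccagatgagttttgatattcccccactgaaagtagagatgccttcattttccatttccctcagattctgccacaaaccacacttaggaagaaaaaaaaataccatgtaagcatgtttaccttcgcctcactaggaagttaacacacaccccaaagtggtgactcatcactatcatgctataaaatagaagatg
Vegfa upstream (chr17:46032378-46032627, minus strand): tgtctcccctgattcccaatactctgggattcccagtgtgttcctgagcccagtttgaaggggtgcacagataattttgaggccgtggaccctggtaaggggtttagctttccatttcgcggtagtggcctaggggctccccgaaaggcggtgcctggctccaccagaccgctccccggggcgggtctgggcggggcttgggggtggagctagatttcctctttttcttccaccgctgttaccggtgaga
Spp1 upstream (chr5:104434861-104435110, plus strand): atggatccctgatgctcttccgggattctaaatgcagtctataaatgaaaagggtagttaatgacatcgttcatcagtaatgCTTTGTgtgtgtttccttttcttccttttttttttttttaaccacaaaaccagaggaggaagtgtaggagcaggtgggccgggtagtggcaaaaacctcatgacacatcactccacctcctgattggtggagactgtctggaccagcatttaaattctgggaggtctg
The Col10a1 sequence held 2 matches on the strand of the gene, an ACAAAG whose first base lies 185 bp before the start and a TCAATG at 169 bp. The Spp1 sequence held 1, an ACAAAG read on the opposite strand and printed as CTTTGT, whose first printed base lies 168 bp before the start. Neither the Mmp13 nor the Vegfa sequence held any. Of the 32851 upstream sequences of the same length in the RefSeq table, 39.4% held at least 1 match and 10.8% at least 2. The Vegfa sequence was the richest in G and C, at 59.2%, against 40.4% for Mmp13, 41.6% for Col10a1 and 43.6% for Spp1.

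The 4 loci differed widely in the number of called sites. Spp1 had 16 Sox6 and 2 Sox9 peaks in the shortest window, Vegfa had 11 and 6 in the longest, Col10a1 had 5 and 1, and Mmp13 had none of either. Per 100 kb of window this is 32.0 Sox6 peaks at Spp1, 10.0 at Vegfa and 6.25 at Col10a1. For Sox9 the order of the first pair was turned, with 5.45 per 100 kb at Vegfa, 4.0 at Spp1 and 1.25 at Col10a1. That order rests on few peaks and on the window ends. With windows widened by 20000 bp Vegfa still had 6 Sox9 peaks, while Spp1 had 4 and Col10a1 had 4. To give each count a background, the genome was divided into consecutive tiles as long as the window, and the tiles with at least as many peaks were counted. This is a description with no test, since tiles are placed without regard to genes while the windows surround them. Summed over the windows, the Sox6 peaks were 3.35 times and the Sox9 peaks 3.13 times what the mean tile would hold. Spp1 gave 16 of the 32 Sox6 peaks, Vegfa gave 6 of the 9 Sox9 peaks and Mmp13 gave none. The sums therefore do not describe each locus.

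**Figure D1:**
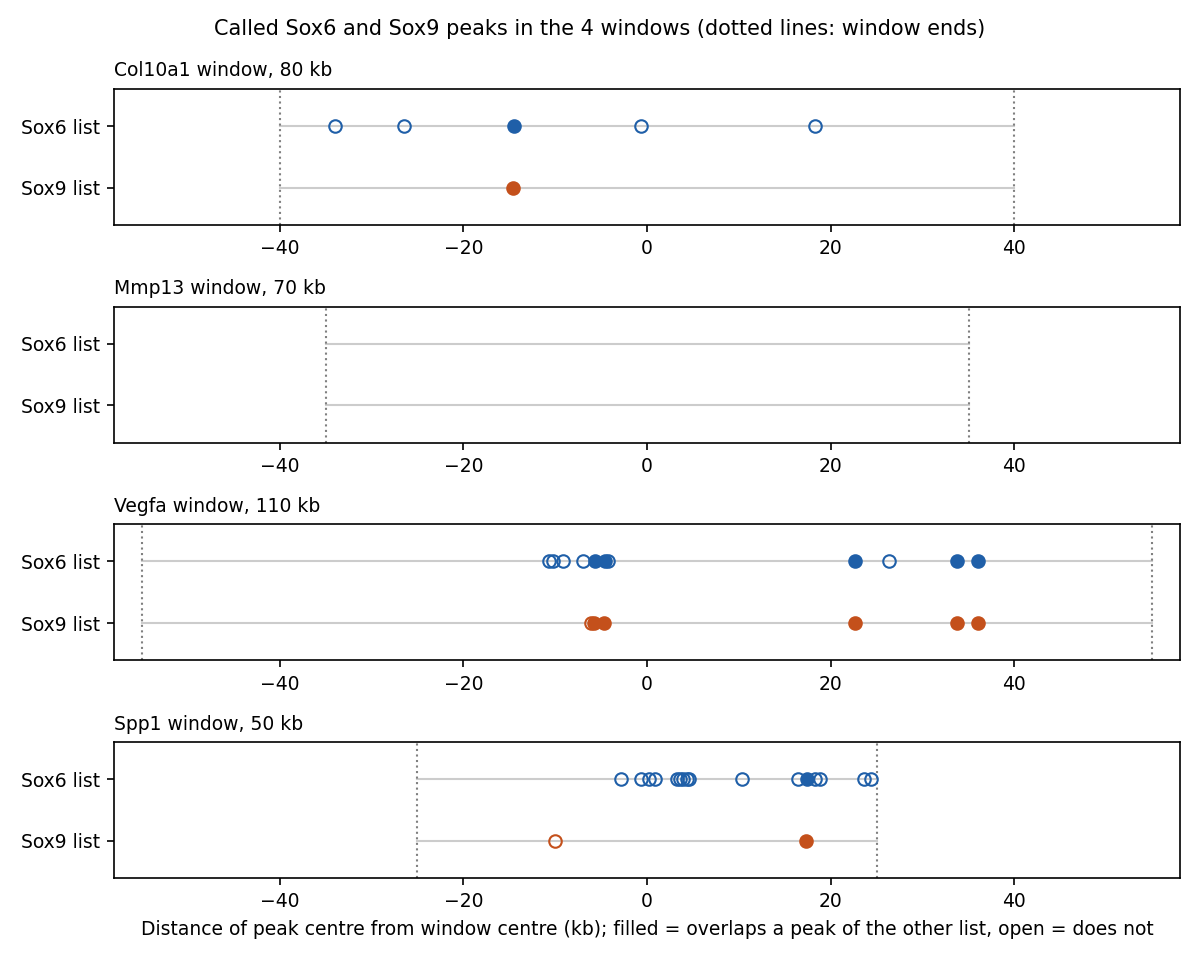
Each point is the centre of a called peak, at its distance in kb from the centre of the window (x axis), for the Sox6 and Sox9 lists (rows) in the 4 windows. Filled points share at least 1 bp with the other list and open points share none. The 16 Sox6 peaks of Spp1 crowd into the right part of its window, while the Mmp13 window is empty.

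Col10a1 had 5 Sox6 sites, fewer than Spp1 and Vegfa, and a single site called for both factors. The shared site was the Sox6 peak on chromosome 10 from 34105258 to 34105678, 421 bp wide, and the Sox9 peak from 34105283 to 34105451 lay entirely inside it. Their centres were 101 bp apart. The other 4 Sox6 peaks were 159 to 194 bp wide and lay at least 9323 bp from any Sox9 peak. The earliest of the 5 in the deposited order was not the shared one but the peak from 34119286 to 34119444, at place 7510. In the whole Sox6 list 23.1% of peaks met Sox9, and the 1 of 5 at Col10a1 is 20.0% (95% exact binomial interval 0.505 to 71.6). Tiles of 80 kb held at least 5 Sox6 peaks in 19.7% of cases and at least 1 Sox9 peak in 33.9%. Both counts were above the median tile, which held 1 Sox6 and 0 Sox9 peaks. The Sox6 count was also above the upper quartile of 4, and the Sox9 count equalled its upper quartile of 1.

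The surroundings of Col10a1 were uneven. The 80 kb before the window (toward lower coordinates) held 10 Sox6 and 4 Sox9 peaks, and the 80 kb after it held 1 and 0. Just outside the window, at lower coordinates, a Sox6 peak from 34076505 to 34076639 and a Sox9 peak from 34076450 to 34076592 overlapped each other, with centres 3.43 and 3.48 kb before the edge. After the Sox9 peak of the window none was called for 2590 kb, and Sox6 was sparse there too, with 6 peaks. That is 2.32 Sox6 peaks per Mb, against a mean of 2.46 per 80 kb tile over the genome. Of the 23844 gaps between neighbouring Sox9 peaks, 109 (0.457%) were at least as long as this 2590 kb stretch. This is a share of gaps and not of the genome, of which each long gap takes up more. How often a locus borders such a gap was not computed. In gene order on GRCm38.p6, Col10a1 lies inside Nt5dc1, a gene for a protein of the nucleotidase family, with Frk, a tyrosine kinase gene of the Src family, as the next protein-coding gene after it. Sites of the window can therefore lie in or near Nt5dc1, and no site was assigned to either gene.

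Spp1 had the densest Sox6 sites of the 4 loci, and 1 of its 16 Sox6 peaks met Sox9. Only 0.296% of 50 kb tiles held as many as 16 Sox6 peaks, whereas 10.8% held at least 2 Sox9 peaks. Sox9 overlapped 1 of the 16 Sox6 peaks, or 6.25% (0.158 to 30.2), with an interval that contains the 23.1% of the whole list. In the 152 tiles that were as rich in Sox6, 18.0% of the Sox6 peaks were shared, and 13.2% of those tiles had 1 shared Sox6 peak or none. Tiles with more than 16 Sox6 peaks stay at 1 shared peak or none less easily, so the 13.2% is no rate for windows with exactly 16.

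The shared Spp1 site was a narrow Sox6 peak on chromosome 5 from 104882342 to 104882417, 76 bp wide, inside the Sox9 peak from 104882279 to 104882432. Their centres were 24 bp apart. It was also the earliest Sox6 peak of the window in the deposited order, at place 12078, and the Sox9 peak was at place 5404 of its list. The other Sox9 peak, from 104854912 to 104855152, was 241 bp wide, stood at place 19394 and lay 6798 bp from the nearest Sox6 peak. The remaining 15 Sox6 peaks lay 756 to 13266 bp from any Sox9 peak and stood between places 21087 and 71907.

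A compact group of Sox6 peaks without Sox9 stood near the middle of the Spp1 window. From 104864257 to 104869637, 8 neighbouring Sox6 peaks lay within 5381 bp, with centres 263 to 2404 bp apart, and the nearest Sox9 peak was 9104 bp away. The peaks were 109 to 436 bp wide and together covered 26.6% of the stretch. This group was singled out after its positions were seen. Of all stretches of 8 neighbouring Sox6 peaks in the list, 0.247% were as short, and these formed 75 separate regions, of which 31 (41.3%) held no Sox9 peak. The absence of Sox9 there was therefore common among Sox6 groups this tight.

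The Spp1 window also held 3 of the 4 widest Sox6 peaks among the members. In the Sox6 list 5.02% of peaks were at least 354 bp wide, the 95th percentile, and 4 of the 32 members were, 3 of them at Spp1 and the 421 bp peak at Col10a1. The wide Spp1 peaks ran from 104861951 to 104862340, from 104868379 to 104868814 and from 104875141 to 104875539, and none of them overlapped Sox9. They stood late in the list, at places 67834, 60045 and 67832. The shared peak of Spp1 was the second narrowest of its 16, while the shared peak of Col10a1 was the widest of its 5. Width therefore did not separate shared from unshared sites across these loci.

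**Figure D2:**
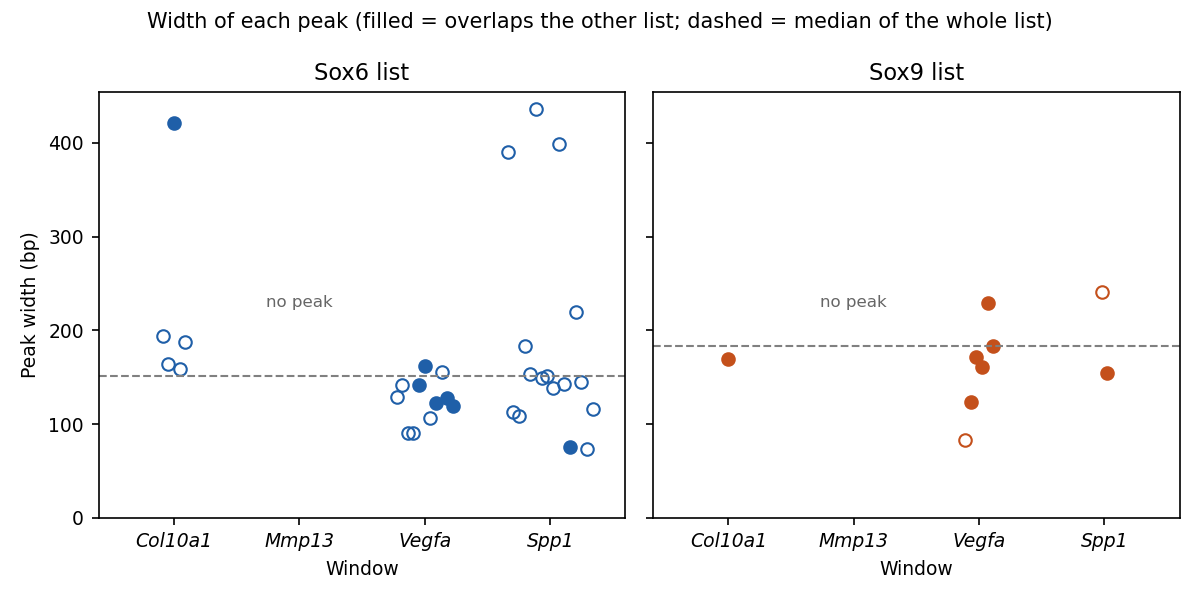
Peak width in bp (y axis, from 0) for every Sox6 peak (left) and Sox9 peak (right) by window, ordered from left to right by position; filled points overlap the other list and the dashed line is the median of the whole list, 151 bp for Sox6 and 183 bp for Sox9. Vegfa Sox6 peaks stay between 90 and 162 bp, while 3 Spp1 peaks and 1 Col10a1 peak reach 390 bp or more.

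The edges of the Spp1 window decide part of its counts. Sox9 peaks lay just outside both ends. One, from 104837000 to 104837225, had its centre 2.89 kb before the window and overlapped no Sox6 peak. The other, from 104894264 to 104894494, had its centre 4.38 kb after it and overlapped Sox6. A further Sox6 peak, from 104889992 to 104890034, had its centre 0.0125 kb beyond the end of the window, and the last one inside ran from 104889352 to 104889467. With neighbouring centres no more than 12.5 kb apart, all 16 peaks belonged to 1 run of 21 Sox6 peaks over 38.5 kb, and 1.36% of the runs of 3 or more peaks in the list had as many. These values depend on the distance allowed: at 25000 bp 5.49% of runs were as large, and at 5000 bp 15 of the 16 peaks lay in separate runs of 9 and 10 peaks, sizes reached by 4.61% and 3.41% of runs. In gene order on GRCm38.p6, Mepe, Ibsp and Dmp1 precede Spp1, and Pkd2, the gene of polycystin-2, follows it. Mepe, Ibsp and Dmp1 encode proteins of mineralised matrix from the same family as osteopontin. The peaks on the side of higher coordinates can thus lie nearer to Pkd2 than to Spp1, and were assigned to neither.

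Mmp13, the collagenase gene, had no called site of either factor. The nearest Sox6 peaks were 45.1 kb before the window, from 7184863 to 7184988 on chromosome 9, and 38.7 kb after it, from 7338596 to 7338862. These left 154 kb without a Sox6 peak. The nearest Sox9 peaks stood beside them, from 7184245 to 7184519 and from 7338682 to 7338875, and both were shared: the one after the window overlapped its Sox6 neighbour, and the one before it overlapped another Sox6 peak farther out. An empty stretch as long as the window is common: 44.5% of 70 kb tiles held no peak of either list, 45.1% no Sox6 peak and 68.4% no Sox9 peak. How common a stretch of 154 kb without peaks is was not computed. The lists give only peaks that passed the authors' calling, so weaker binding at Mmp13 was not measured. In gene order the gene is followed by Mmp12, Mmp1b and Mmp3, which encode other matrix metalloproteinases, and preceded by Dcun1d5 and Dync2h1.

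**Figure D3:**
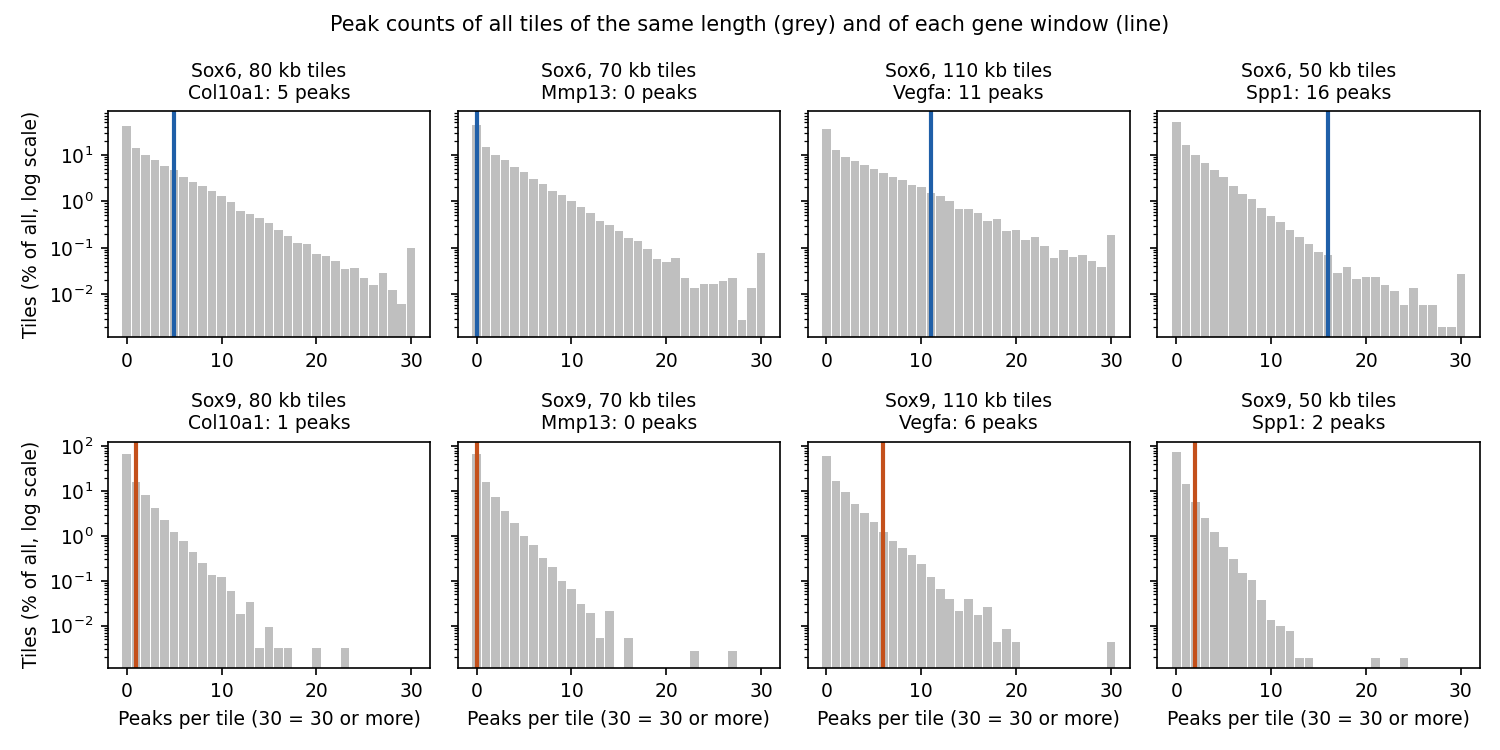
Share of all genome tiles of the window's length (y axis, percent on a log scale) by the number of peaks they hold (x axis), for Sox6 (top) and Sox9 (bottom); the coloured line is the count in the gene window. The line lies far in the tail for Spp1 Sox6, in the tail for both lists at Vegfa, and at 0 for Mmp13, where the tallest bar is.

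Vegfa had the most sites called for both factors. Its window held 5 overlapping pairs, which take in 5 of 6 Sox9 peaks, or 83.3% (35.9 to 99.6), against 76.7% in the whole Sox9 list. From the Sox6 side they are 5 of 11, or 45.5% (16.7 to 76.6), an interval that contains the 23.1% of the whole list. Tiles of 110 kb held at least 11 Sox6 peaks in 8.0% of cases and at least 6 Sox9 peaks in 3.5%. In the tiles with at least as many Sox6 peaks, 24.1% of the Sox6 peaks were shared, a share that the Vegfa interval also contains. Of these tiles 32.2% had 5 or more shared Sox6 peaks, a number that tiles with more peaks reach more easily. Vegfa thus lay among the richer stretches for both factors.

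The Vegfa sites fell into 2 groups, 26857 bp apart between the nearest Sox6 centres. The first, from 46164248 to 46170814 on chromosome 17, held 7 Sox6 peaks and 3 Sox9 peaks. Its lower end carried 4 Sox6 peaks without Sox9, at least 815 bp from the nearest Sox9 peak. Toward the upper end the Sox6 peak from 46169225 to 46169366 overlapped the Sox9 peak from 46169162 to 46169285 by 61 bp, with centres 72 bp apart. The Sox6 peak from 46170302 to 46170463 overlapped the Sox9 peak from 46170198 to 46170369 by 68 bp, with centres 99 bp apart. Both overlaps of this group covered only a part of each peak, which also held for overlaps of 119 and 98 bp in the second group. The remaining Sox9 peak of the group, from 46168868 to 46168950, was 83 bp wide and lay 274 bp from the nearest Sox6 peak, and a Sox6 peak from 46170708 to 46170814 lay 338 bp from the nearest Sox9 peak.

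The second group, from 46197557 to 46211106, held 4 Sox6 and 3 Sox9 peaks and was shared except for 1 Sox6 peak. The Sox6 peak from 46197557 to 46197679 had its centre 23 bp from that of the Sox9 peak from 46197561 to 46197721. The Sox6 peak from 46208677 to 46208804 lay wholly within the Sox9 peak from 46208637 to 46208865, with centres 10.5 bp apart, the closest pair of the 4 loci. The Sox6 peak from 46210988 to 46211106 and the Sox9 peak from 46210903 to 46211085 had centres 53 bp apart. The unshared Sox6 peak, from 46201275 to 46201430, stood at place 73480, the latest of the 32. The centres of the pairs were thus 10.5 to 53 bp apart in this group and 72 to 99 bp in the other. Over the 7 pairs of all windows the median was 53 bp, with 3 within 50 bp, against a median of 40.5 bp and 58.5% within 50 bp over the overlapping Sox9 peaks of the whole list.

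No peak of either list was closer than 11.7 kb to the edges of the Vegfa window. The nearest outside were Sox6 peaks 18.3 kb before and 11.7 kb after it, and the nearest Sox9 peaks were 116 kb before and 67.8 kb after. In gene order on GRCm38.p6 the next protein-coding genes are Tmem63b, Mrpl14 and 1600014C23Rik before Vegfa and Mrps18a, Rsph9 and Mad2l1bp after it. Mrpl14 and Mrps18a encode proteins of the mitochondrial ribosome. Without an annotation on mm9, the groups were not placed on the promoter, the body or the flanks of Vegfa.

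Shared Sox6 sites stood early in the deposited order at Vegfa and Spp1. The order of the lists is not documented, and overlap is known to fall along the Sox6 list as a whole, so the members' places are a description. The 5 shared Vegfa peaks were at places 1632, 9721, 13430, 13814 and 17629 of 79107. All 5 stood ahead of the 6 unshared ones, which ran from 26146 to 73480. At Spp1 the shared peak likewise came first. At Col10a1 it did not: at place 19997 it followed 3 unshared peaks, with 1 after it, at 55203. Over the 4 loci 6 of the 9 peaks in the first 25% of the list were shared, against 54.0% of all Sox6 peaks there, and 1 of 8 in the next 25%, against 22.2%. None of the 15 in the rest of the list was shared, where the shares were 10.2% and then 5.87% in all. Spp1 alone had 7 of its 16 Sox6 peaks in the last 25% of the list and 1 in the first.

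Among shared peaks, the Sox9 places spread more widely than the Sox6 places, from 8.0% to 92.4% of the list against 2.06% to 25.3%. The earliest Sox9 peak of the 4 loci was the Vegfa peak from 46208637 to 46208865, at place 1910 of 23865, and the other shared Vegfa peaks were at places 7947, 10938, 14625 and 22054. The Col10a1 peak stood at place 12602. The 2 Sox9 peaks without Sox6 were late, at place 22053 for Vegfa and 19394 for Spp1. A shared Vegfa peak was as late, at place 22054, and how overlap changes along the whole Sox9 list is not given here. The late Vegfa pair at places 22053 and 22054 consisted of neighbours in the genome, with centres 314.5 bp apart. In the Sox6 list the Spp1 peaks at places 67829, 67832 and 67834 were similarly close in order, with peaks of chromosomes 2, 16 and 4 between them.

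**Figure D4:**
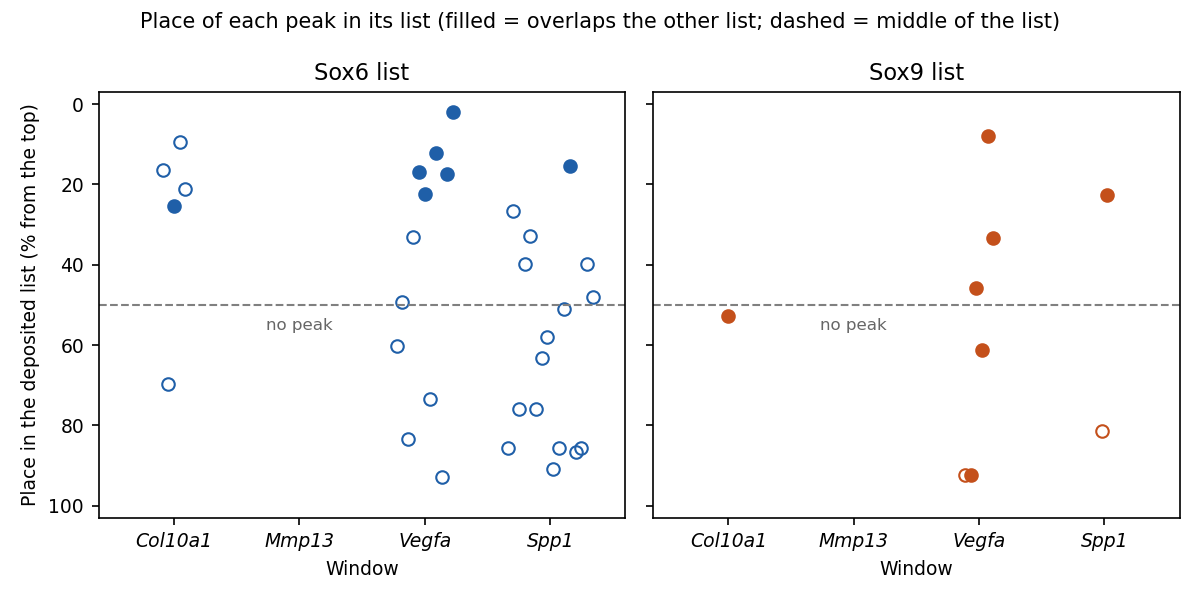
Place of each peak in its deposited list, in percent from the top (y axis, top of the list at the top), for the Sox6 list (left) and the Sox9 list (right) by window; filled points overlap the other list and the dashed line is the middle. The filled Sox6 points all lie in the first 25.3% of the list, and 10 of the 16 Spp1 points lie below the middle.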

How the data were processed

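Called ChIP-seq peaks were analysed as positions. Each list deposited by the authors gives a chromosome, a start and an end per peak, with no score, count or p-value. Per the submitters' processing notes, Bowtie was used on mm9. Both lists are marked FDR1 in their names, which no source used here explains. The peak caller is not given in the sources used here. The Sox9 list was called in the same way, per the design text of the series, and its build, which is not stated, was taken as mm9. Starts were read as counted from 0 and are printed counted from 1. Peaks were assigned to a window by their centre, and overlap meant at least 1 bp. Tiles lay between the first and last peak of each chromosome. Runs were 3 or more peaks with neighbouring centres within 12.5 kb. Exact binomial intervals (Clopper-Pearson, 95%) treat peaks as independent. No genome or annotation on mm9 was used, so peaks were not placed against genes or sequence, and the planned position against start sites and the counts over other hypertrophy genes were not run. Gene names and order came from RefSeq on GRCm38.p6, where 4 of 4 genes matched.

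The counting functions were tested on simulated lists with known answers. Python 3.11.15, pandas 2.3.3, NumPy 2.4.6, SciPy 1.17.1 and matplotlib 3.10.9 were used. The members and alternatives were chosen with earlier results of these data known. The text names the 4 genes, their nearest protein-coding neighbours, every shared and every Sox9 peak, and the first Sox6 peak of each window in list order. Wide peaks, edge peaks, the stretch without Sox9 after the Col10a1 peak and the compact Spp1 group were chosen after their values were seen.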

Additional observations from a re-analysis of the deposited data

How the results depend on the processing

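The 4 windows hold few peaks, so single sites move the shares. Of 50 alternatives for the main counts and shares, 43 stayed within 1.5 times the count or within the interval of the share, and 7 did not. The intervals of the shares are wide, 9.28 to 40.0 for Sox6 and 40.0 to 97.2 for Sox9, so staying within them shows little. With the first 50% of each list the Sox6 peaks fell to 17 and the Sox9 peaks to 4, of which 100.0% overlapped Sox6. With windows widened by 20000 bp there were 14 Sox9 peaks, and Mmp13 still had none of either list. When an overlap had to cover 50% of each peak, 33.3% of Sox9 peaks were shared, all 3 of them at Vegfa, and neither Col10a1 nor Spp1 kept a shared site. The Sox6 share fell from 21.9% to 9.38% under the same rule, and still counts as within its interval. With equal list lengths, which kept only the early part of the Sox6 list, 63.6% of the 11 Sox6 peaks left were shared. For all Sox6 peaks, members included, overlap was 54.0% in the earliest of 4 equal parts of the list and 22.2% in the next. The equal-length list kept 23865 Sox6 peaks, more than the 19776 of the earliest part, so neither share is a matched background. Whole-list shares under equal lengths, the first 50% of each list or the 50% overlap rule are not given here. The shares under these settings therefore cannot be read as traits of the 4 loci. With a gap of 5000 bp the Sox9 runs fell to 1. The share of Sox6 peaks that overlapped Sox9 was 9.52% without Vegfa and 37.5% without Spp1, against 21.9% over all windows. At Spp1 narrowing the window by 10000 bp at each end left 10 Sox6 peaks. No paired analysis was possible because each group has 1 sample and no result comes from a test between groups.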
